A study of Mus musculus with 32 samples.

Results

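Multipotent progenitor 1 (MPP1) cells sorted from 20-month-old mice were compared with MPP1 cells from 10-week-old mice across all genes, using raw RNA-seq read counts. The comparison took 2 aged and 2 young libraries, 4 of the 32 libraries in the series, chosen by their labelled fraction and age. All mice were female C57BL/6 (B6-CD45.2), with no transgene or treatment named, and the aged animals had been bought young and kept until 20 months. From lineage-negative bone marrow, labelled IL-7- as well, MPP1 cells were sorted as positive for c-kit and Sca-1, for CD150 and for CD34, and as negative for CD48 and for Flt3. The gate of the haematopoietic stem cell (HSC) fraction differed in being CD34-, and that of MPP2, a megakaryocyte- and erythroid-biased progenitor, in being CD48+. Both were used below as neighbours, each also with 2 young and 2 aged libraries. Both libraries of an age came from duplicate sorts of pooled marrow, so the p-values may cover only the technical spread between sorts of a pool, not that between mice.

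MPP1 lies directly below the HSC in the haematopoietic hierarchy, keeps multilineage but only transient repopulating ability, and cycles more than the HSC does. With age the marrow produces fewer lymphocytes and more myeloid cells and platelets, and HSCs of old mice carry a known set of raised transcripts, among them Selp, Clu and Aldh1a1. Progenitors that leave the resting state switch on the E2F-driven genes of DNA replication and then the genes of mitosis, while the transcription factors that keep a stem cell undifferentiated decline as cells mature.

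Each MPP1 library held 13291845 and 13516329 counts at 10 weeks and 12985649 and 14544807 counts at 20 months, so 3 counts, the level below which no gene was treated as detected, corresponded to 0.206 to 0.231 CPM (counts divided by the library's total, on the usual scale of CPM). Between the duplicates the log2 values differed by a root mean square of 0.461 at 10 weeks and 0.467 at 20 months, and between single libraries of the 2 ages by 0.631. Of the sort antigens' transcripts, Il7r had no read in any of the 4 libraries. Kit, the stem cell factor receptor, measured 1519 and 1431 CPM at 10 weeks and 1040.5 and 1074 CPM at 20 months and fell with age (log2 fold change -0.44 ± 0.11, edgeR adjusted p = 0.00844). Cd48, whose protein the gate excludes, measured 8.73 and 6.58 CPM at 10 weeks and 14.2 and 15.9 CPM at 20 months and rose 2.03-fold (log2 fold change 1.02 ± 0.14, edgeR adjusted p = 4.05e-05). Cd34, with 725 and 725 CPM against 723 and 743 CPM, and Slamf1 (CD150), with 20.6 and 23.7 CPM against 20.6 and 20.7 CPM, were not called. Neither were Ly6a (Sca-1), with 169.7 and 177 CPM against 225 and 228 CPM, and Flt3, with 92.5 and 93.7 CPM against 67.6 and 71.3 CPM. The call of Kit was lost with any 1 MPP1 library left out.

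Of 14154 genes tested, 963 (6.8%) differed between the ages by edgeR's quasi-likelihood test with Benjamini-Hochberg adjustment. A gene was called where its adjusted p lay under 0.01. Of these, 667 (4.71% of genes tested) were higher and 296 (2.09%) were lower at 20 months. In none of the called genes with a symbol did the values of the 2 ages overlap. With 2 libraries per age such separation was also seen in genes not called, among them Ly6a, so it adds nothing to the calls. Most differences were small, with a median size of 0.53 on the log2 scale among called genes. At least 2-fold differences were seen in 96 higher and 54 lower genes. The median log2 fold change over all genes tested was -0.0019. All 16 groups shared the estimate of spread, and a fit on the 4 MPP1 libraries alone called 2421 genes, of which 56.9% were higher, against 69.3% in the shared fit. Leaving out a library left 343 called genes (without young MPP1 replicate 1), 423 (without young replicate 2), 454 (without aged replicate 1) or 490 (without aged replicate 2).

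**Figure D1:**
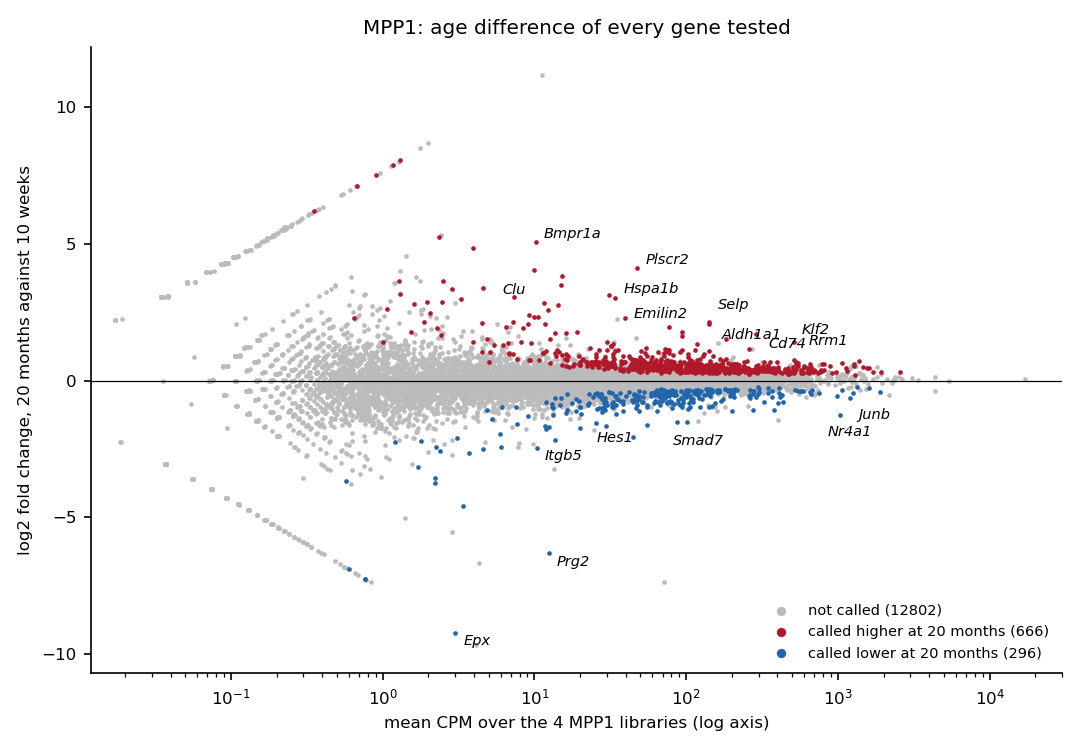
Mean CPM over the 4 MPP1 libraries (log axis) against the log2 fold change of 20 months over 10 weeks for every gene tested that has a symbol and a count, with called genes in red (666 higher) and blue (296 lower). Most called genes lie within 2-fold of 0, the straight outer lines are genes without a read at one age, and named genes are labelled.

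Gene lists written from general knowledge, with earlier results of these data known, differed in the direction of their calls. Of 52 tested genes of S phase and replication 46 were higher and none was lower, and of 39 genes of cholesterol and fatty acid synthesis 14 were lower and none was higher. Called members of the lists for mitosis, chaperones, oxidative phosphorylation, proteasome and splicing were higher, except Srsf5 in the last. Those of the stem cell regulator list were lower, and the interferon-stimulated list held 1 call in each direction.

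**Figure D2:**
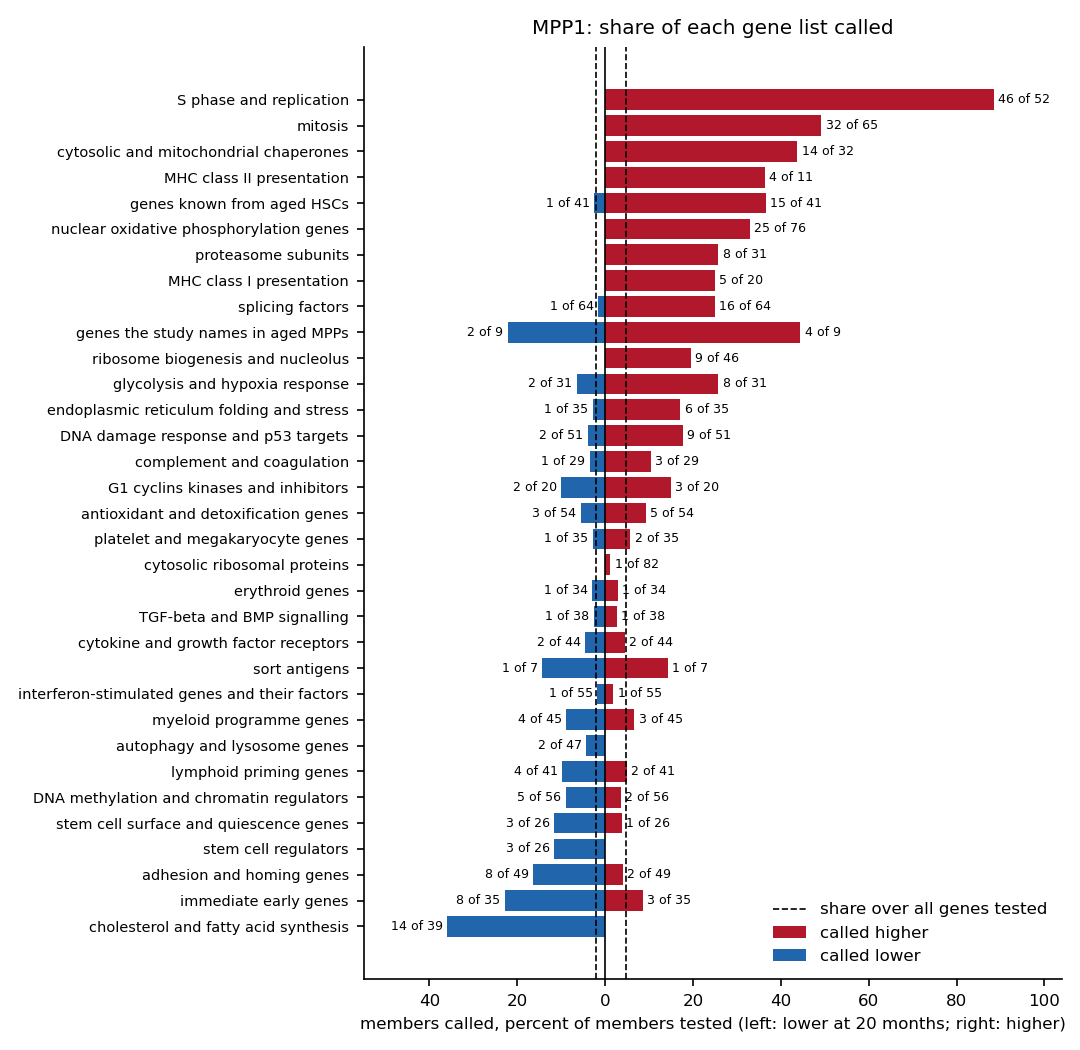
Percent of the tested members of each of 33 gene lists called higher (red, right) or lower (blue, left) in MPP1 at 20 months, with the counts beside the bars and dashed lines at the shares over all genes tested, 4.71% higher and 2.09% lower. S phase and replication stands at the top with 46 of 52 higher and cholesterol and fatty acid synthesis at the bottom with 14 of 39 lower.

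Genes known from aged HSCs were called higher more than lower. Of 41 tested members 15 were higher (36.6% against 4.71% of all genes tested) and 1 was lower, with a median log2 fold change of 1.25, or 1.11 with genes unread at one age set to their bound. Bmpr1a, a receptor for bone morphogenetic proteins, had 0.451 and 0.74 CPM at 10 weeks and 17.6 and 21.9 CPM at 20 months, the largest change among higher genes of at least 5 CPM (log2 fold change 5.07 ± 0.50, edgeR adjusted p = 2.24e-06). Plscr2, a phospholipid scramblase, measured 4.81 and 5.77 CPM at 10 weeks and 85.9 and 93.7 CPM at 20 months (log2 fold change 4.12 ± 0.21, edgeR adjusted p = 6.30e-09). Selp, the platelet and endothelial adhesion molecule P-selectin, had 50.7 and 55.6 CPM at 10 weeks and 231 and 229.6 CPM at 20 months, a 4.46-fold rise (log2 fold change 2.16 ± 0.14, edgeR adjusted p = 6.30e-09). In all 3 genes both aged libraries lay several-fold above both young ones. In bulk samples such a rise cannot separate more cells carrying a transcript from more transcript per cell.

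Aldh1a1, an enzyme of retinoic acid synthesis, measured 52.96 and 58.7 CPM at 10 weeks and 228 and 225 CPM at 20 months and Clu, the extracellular chaperone clusterin, 3.08 and 2.66 CPM at 10 weeks and 21.02 and 19.5 CPM at 20 months. Their log2 fold changes were 2.06 ± 0.18 and 2.85 ± 0.28 (edgeR adjusted p = 3.96e-07 and 8.74e-07). Mt1, a metallothionein, rose from 3.61 and 3.55 CPM to 13.6 and 12.8 CPM (log2 fold change 1.92 ± 0.16, edgeR adjusted p = 2.47e-07). Nupr1, a stress-induced nuclear protein, Clca3a1 and Wwtr1, the transcriptional coactivator TAZ, rose 6.76-, 5.93- and 11.4-fold, and Neo1, the receptor neogenin, 4.36-fold. Vwf, von Willebrand factor, is a marker of platelet-biased stem cells and was not called, with 30.8 and 29.002 CPM against 44.6 and 51.2 CPM (log2 fold change 0.72 ± 0.22, edgeR adjusted p = 0.0308). Mllt3 was the member that fell. The call of Neo1 was lost without any 1 of the libraries. Leaving out any 1 of the 4 libraries left 11 to 12 members higher.

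**Figure D3:**
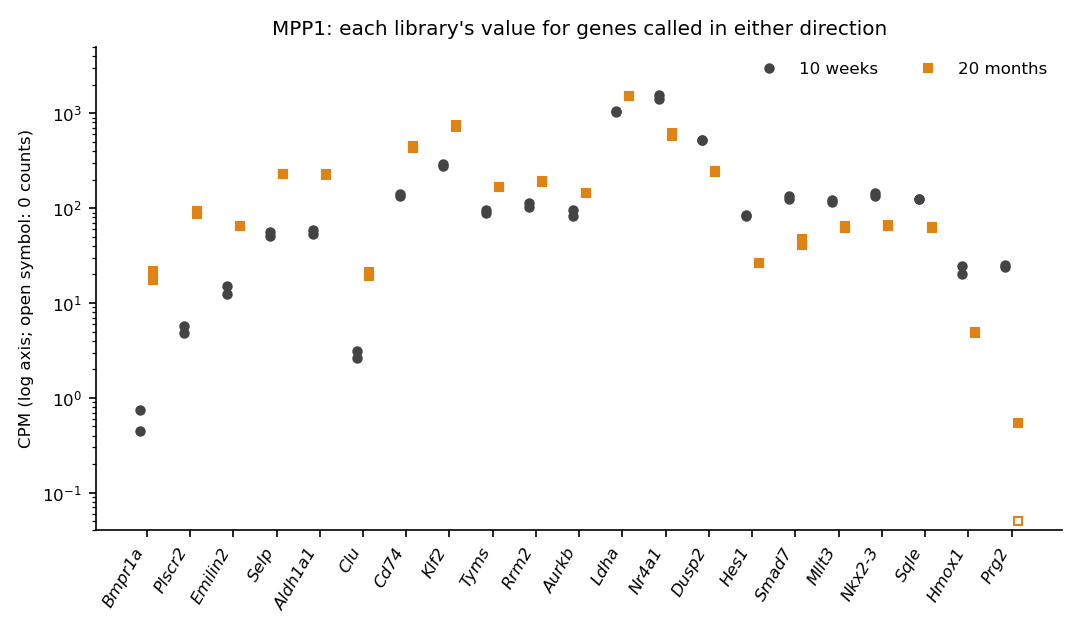
CPM of 21 called genes in each MPP1 library on a log axis, circles for 10 weeks and squares for 20 months, with an open symbol at the bottom for a library with 0 counts. In every gene plotted the 2 ages do not overlap.

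All 52 tested members of the S phase list had a log2 fold change above 0 (median 0.56, range 0.31 to 0.99). Of them 46 were called higher, 88.5% against 4.71% of all genes tested. Tyms, thymidylate synthase, had 88.4 and 95.3 CPM at 10 weeks and 166 and 167 CPM at 20 months (log2 fold change 0.90 ± 0.08, edgeR adjusted p = 2.47e-07). Rrm2 and Rrm1, the subunits of ribonucleotide reductase, measured 112 and 102 CPM against 195 and 189 CPM and 423 and 407 CPM against 645 and 659.8 CPM, rises of 1.85- and 1.62-fold. Uhrf1, which guides maintenance DNA methylation at the replication fork, went from 317 and 299 CPM to 479.8 and 489 CPM (log2 fold change 0.69 ± 0.06, edgeR adjusted p = 3.23e-07). All 6 subunits of the replicative helicase, Mcm2 to Mcm7, were called, with log2 fold changes from 0.44 (Mcm3) to 0.62 (Mcm5). The flap endonuclease Fen1 rose 1.59-fold, and Ccne1, cyclin E1, 1.99-fold. The 6 members not called were Gins3, Gins4, Rfc1, Rfc3, Orc1 and Rpa1. Without any 1 library 31 to 35 members were called, and among those named here the call of Mcm4 was lost in 2 such fits.

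Of 65 tested mitotic genes 32 were higher (49.2% against 4.71% of all genes tested) and none lower. Their median log2 fold change was 0.48. Mybl2, a transcription factor of the S to G2/M transition, had 47.02 and 49.4 CPM at 10 weeks and 97.2 and 91.9 CPM at 20 months, the largest rise on the list (log2 fold change 1.01 ± 0.10, edgeR adjusted p = 2.09e-06). Aurkb, the kinase of the chromosomal passenger complex, measured 95.4 and 83.2 CPM against 146 and 144 CPM (log2 fold change 0.74 ± 0.10, edgeR adjusted p = 4.08e-05) and Aurka, the spindle pole kinase, 49.4 and 55.7 CPM against 79.1 and 73.4 CPM (log2 fold change 0.58 ± 0.11, edgeR adjusted p = 9.29e-04). Cdk1, Birc5 (survivin), Pbk and the kinetochore gene Spc24 rose 1.52-, 1.55-, 1.65- and 1.64-fold. Cdc20, the activator of the anaphase-promoting complex, measured 119.6 and 129.8 CPM against 144 and 153 CPM and Cenpa, the centromeric histone, 78.4 and 82.2 CPM against 85.6 and 80.03 CPM. Neither was called. Mki67 varied between duplicates, with 148 and 98.2 CPM against 181 and 157 CPM, and was not called (log2 fold change 0.50 ± 0.20, edgeR adjusted p = 0.125). Leaving out 1 library left 11 to 15 of the mitotic genes called, and the fit on MPP1 alone called 50.

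Among regulators of G1, Cdk6, the cyclin D partner that governs exit from quiescence, rose from 56.1 and 48.2 CPM to 96.9 and 106 CPM (log2 fold change 1.00 ± 0.11, edgeR adjusted p = 6.40e-06), and Cdk4 rose 1.25-fold. Ccnd2, cyclin D2, went the other way, with 421 and 406 CPM at 10 weeks and 236 and 236 CPM at 20 months (log2 fold change -0.77 ± 0.13, edgeR adjusted p = 2.70e-04). Among the inhibitors 1 rose and 1 fell. Cdkn2c, p18, had 35.7 and 37.1 CPM at 10 weeks and 68.5 and 72.6 CPM at 20 months (log2 fold change 1.00 ± 0.10, edgeR adjusted p = 1.01e-06), and Cdkn1a, p21, had 37.99 and 34.3 CPM at 10 weeks and 23.7 and 21.5 CPM at 20 months (log2 fold change -0.64 ± 0.13, edgeR adjusted p = 0.00208). Cdkn1c, p57, with 57.3 and 55.3 CPM against 37.7 and 35.6 CPM, and Cdkn1b, p27, with 16.6 and 17.5 CPM against 12.2 and 11.001 CPM, were not called. The calls of Aurka, Cdk4 and Cdkn1a were lost when 1 MPP1 library was left out.

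Promoter sequences, from 250 bases before to 50 bases after the transcription start (RefSeq, GRCm38.p6), were given for 11003 of 14133 tested genes with a symbol. The E2F site (TTTCCCGC or TTTGGCGC, either strand) lay in 9.50% of 621 promoters of genes called higher, 1.74% of 344 of genes called lower and 2.78% of 13973 promoters of all genes tested. In the S phase list 24.5% of 49 promoters held it. The CHR element (TTTGAA or TTCGAA), a site of mitotic genes, lay in 72.9% of 59 promoters of the mitosis list and 14.1% of all, and the CCAAT box in 74.6% and 37.4%. In promoters of genes called higher the CHR element lay in 16.1%, near the share of all, and the CCAAT box in 46.7%. In promoters of genes called lower they lay in 12.2% and 37.2%. These shares depend on the window, and with the 250 bases before the start alone the E2F site lay in 12.2% of promoters of the S phase list against 2.30% of all, and the CHR element in 40.7% of those of the mitosis list against 12.5% of all. The promoters of Mcm5 and Cdk1 are printed because they were the members with the smallest p whose promoter holds the E2F site and the CHR element, respectively. Capitals mark the matches, which begin 149 bases before the start in Mcm5 (chr8:75109259-75109558, + strand, on the opposite strand as GCGCCAAA) and 71 and 15 bases before it in Cdk1 (chr10:69352863-69353162, - strand).
Mcm5: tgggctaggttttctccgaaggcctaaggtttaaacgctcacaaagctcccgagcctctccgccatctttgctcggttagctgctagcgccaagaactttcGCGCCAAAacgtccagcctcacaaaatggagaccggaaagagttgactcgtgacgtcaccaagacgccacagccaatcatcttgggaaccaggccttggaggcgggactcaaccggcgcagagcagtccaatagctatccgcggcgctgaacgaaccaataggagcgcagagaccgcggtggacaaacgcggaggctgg
Cdk1: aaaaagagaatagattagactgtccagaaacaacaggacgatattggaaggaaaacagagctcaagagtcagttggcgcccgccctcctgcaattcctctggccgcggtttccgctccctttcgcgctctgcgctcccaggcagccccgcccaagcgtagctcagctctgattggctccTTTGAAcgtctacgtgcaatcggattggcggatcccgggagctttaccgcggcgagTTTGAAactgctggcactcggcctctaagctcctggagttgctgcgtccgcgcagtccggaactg
Mcm5 measured 419 and 429 CPM at 10 weeks and 629 and 639.7 CPM at 20 months (log2 fold change 0.62 ± 0.07, edgeR adjusted p = 2.36e-06) and Cdk1 99.7 and 99.8 CPM at 10 weeks and 145 and 149 CPM at 20 months (log2 fold change 0.60 ± 0.08, edgeR adjusted p = 4.47e-05). A match is only a run of these letters, and binding was not measured here.

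Of 32 cytosolic and mitochondrial chaperones 14 were called higher and none lower (median log2 fold change 0.26). The higher calls were 43.8%, against 4.71% of all genes tested. The inducible Hsp70 genes Hspa1a and Hspa1b, which are nearly identical copies whose reads may be split between them, had 6.85 and 6.36 CPM at 10 weeks and 56.99 and 54.5 CPM at 20 months and 7.67 and 7.55 CPM at 10 weeks and 61.1 and 60.5 CPM at 20 months (log2 fold change 3.12 ± 0.53, edgeR adjusted p = 4.21e-04 for Hspa1a). The cytosolic Hsp90 gene Hsp90aa1 was called higher as well, while Dnajb1, with 303 and 301 CPM against 263 and 259 CPM, and Hsph1, with 66.9 and 68.6 CPM against 70.5 and 75.9 CPM, were not called. The mitochondrial co-chaperonin Hspe1 rose 1.52-fold, and 6 genes of the cytosolic chaperonin, Cct3, Cct5, Cct6a, Cct7, Cct8 and Tcp1, were called with log2 fold changes from 0.27 to 0.40. Leaving out 1 of the MPP1 libraries reduced the called chaperones to 4 to 11. The heat shock element, to which heat shock factor binds, lay in 1.29% of promoters of genes called higher, in none of those called lower and in 0.487% of all. Hspe1 was the chaperone with the smallest p to hold it, with 2 overlapping matches, in capitals, that begin 89 and 84 bases before the start (chr1:55087898-55088197, + strand).
Hspe1: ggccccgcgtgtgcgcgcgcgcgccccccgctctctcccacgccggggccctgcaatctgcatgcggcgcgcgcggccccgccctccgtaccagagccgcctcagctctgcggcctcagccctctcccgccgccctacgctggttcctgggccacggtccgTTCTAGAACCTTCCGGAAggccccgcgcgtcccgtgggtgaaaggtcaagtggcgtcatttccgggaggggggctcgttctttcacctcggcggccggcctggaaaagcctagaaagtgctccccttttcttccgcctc

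Among splicing factors 16 of 64 were higher and 1 was lower (median 0.25). These calls were 25% and 1.56%, against 4.71% and 2.09% of all genes tested. Hnrnpab measured 1049.8 and 1011 CPM against 1244 and 1298 CPM (log2 fold change 0.34 ± 0.04, edgeR adjusted p = 1.49e-05). The U5 component Eftud2 measured 294 and 292 CPM against 380.3 and 397 CPM (log2 fold change 0.45 ± 0.06, edgeR adjusted p = 3.01e-05). Srsf2, an SR protein that binds exonic enhancers, had 575 and 565 CPM against 683 and 693 CPM (log2 fold change 0.31 ± 0.05, edgeR adjusted p = 1.08e-04). Srsf5 was the member that fell, from 567 and 544 CPM to 326 and 307 CPM (log2 fold change -0.77 ± 0.09, edgeR adjusted p = 5.40e-06). Of 35 genes of endoplasmic reticulum folding and stress 6 were higher and 1 lower. These were 17.1% and 2.86%, against 4.71% and 2.09% of all genes tested. Among the higher were Sdf2l1, P4hb and Calr, calreticulin, the last with 889 and 879 CPM against 1037 and 1081 CPM (log2 fold change 0.30 ± 0.05, edgeR adjusted p = 1.27e-04). Dnajb9, a co-chaperone induced by unfolded protein, was lower, with 95.1 and 98.3 CPM against 56.1 and 51.8 CPM (log2 fold change -0.80 ± 0.12, edgeR adjusted p = 1.41e-04). The chaperone Hspa5 (BiP), a main target of the unfolded protein response, was not called, with 692 and 712 CPM against 590.1 and 568 CPM. With 1 library left out the higher calls went down to 4 to 11 splicing factors and 1 to 5 genes of the endoplasmic reticulum list.

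Of 76 nuclear genes of oxidative phosphorylation 25 were higher and none lower, and 75 lay above 0 (median 0.33). The higher calls were 32.9%, against 4.71% of all genes tested. Cycs, cytochrome c, had 138 and 142 CPM at 10 weeks and 196 and 204 CPM at 20 months (log2 fold change 0.55 ± 0.07, edgeR adjusted p = 3.49e-05), and Atp5b, the catalytic beta subunit of ATP synthase, 1536 and 1552 CPM against 1879 and 1866 CPM (log2 fold change 0.32 ± 0.05, edgeR adjusted p = 1.31e-04). The complex III subunits Uqcrq and Cyc1 rose 1.62- and 1.42-fold. The count of oxidative phosphorylation genes ranged from 4 to 20 with 1 library left out, and offsets for GC content and length moved the median to 0.25.

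Of 31 genes of glycolysis and the hypoxia response 8 were higher and 2 lower. That was 25.8% and 6.45%, against 4.71% and 2.09% of all genes tested. Ldha, lactate dehydrogenase, measured 1027 and 1051 CPM against 1534 and 1513 CPM (log2 fold change 0.59 ± 0.06, edgeR adjusted p = 2.24e-06). Gapdh had 1199 and 1253 CPM against 1704 and 1669.8 CPM (log2 fold change 0.50 ± 0.08, edgeR adjusted p = 3.87e-04) and Pkm 1367 and 1379 CPM against 1862 and 1798 CPM (log2 fold change 0.46 ± 0.06, edgeR adjusted p = 3.95e-05). Tpi1, Pgk1, Pgam1 and Eno1 were called higher as well. Ndrg1, a hypoxia-induced gene of the same list, was also higher. Vegfa, a growth factor induced by hypoxia, fell 2.17-fold, from 57.03 and 48.5 CPM to 24.3 and 23.03 CPM, and the aldolase gene Aldoc fell 2.31-fold. The proteasome list had 8 of 31 higher (Psmd13, 125 and 123 CPM against 171 and 171 CPM; log2 fold change 0.51 ± 0.07, edgeR adjusted p = 4.08e-05), and ribosome biogenesis 9 of 46 (fibrillarin, Fbl, 217 and 232 CPM against 295 and 291 CPM). Only 1 of 82 cytosolic ribosomal protein genes, Rps27l, was called, at 1.33-fold. Higher calls were 25.8%, 19.6% and 1.22% of these lists in turn, against 4.71% of all genes tested. Fits without 1 library called 3 to 6 genes of glycolysis and hypoxia as higher and 0 to 1 as lower, with 1 to 4 proteasome and 2 to 6 ribosome biogenesis genes. Left-out libraries ended the calls of Hspa1a, Hspa1b, Sdf2l1, P4hb, Cct5, Cct6a, Cct7, Hsp90aa1, Gapdh, Tpi1, Eno1, Ndrg1, Pgam1, Vegfa, Aldoc and Rps27l. That of Rps27l was also lost with a replicate block within each fraction and with offsets for GC content and length.

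Of 11 tested genes of class II MHC presentation 4 were higher and none was lower (median log2 fold change 0.55). The higher calls were 36.4%, against 4.71% of all genes tested. Cd74, the invariant chain, had 134 and 141 CPM at 10 weeks and 431 and 451 CPM at 20 months, a 3.299-fold rise (log2 fold change 1.72 ± 0.26, edgeR adjusted p = 1.35e-04). H2-Ab1 measured 95.8 and 96.5 CPM at 10 weeks and 269 and 268 CPM at 20 months (log2 fold change 1.52 ± 0.18, edgeR adjusted p = 7.54e-06), and H2-Eb1 and H2-Aa rose 3.903- and 2.51-fold. In each of these 4 genes both aged libraries exceeded both young ones by at least 2-fold. The call of H2-Eb1 was lost in 1 fit with a library left out, and that of H2-Aa in every such fit. That of H2-Aa was also lost with DESeq2 on all libraries and with a replicate block within each fraction. Ciita, the class II transactivator, had 6.696 and 8.88 CPM against 11.7 and 13.2 CPM and was not called (log2 fold change 0.72 ± 0.46, edgeR adjusted p = 0.363). Of markers of B cells, which also carry class II, Pax5, Ebf1 and Ms4a1 had no read in any of the 4 libraries, and the whole list summed to 41.5 and 50.8 CPM at 10 weeks and 42.5 and 38.7 CPM at 20 months, most of it Cd79b, with no call among 14.

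For class I, 5 of 20 genes were higher, 25% against 4.71% of all genes tested. They included the peptide transporter gene Tap1 (351 and 344 CPM against 452 and 458 CPM, log2 fold change 0.43 ± 0.09, edgeR adjusted p = 0.00377) and the immunoproteasome gene Psmb8. Psme2 was also called, and so were Pdia3 and Calr, which stand on the endoplasmic reticulum list as well. The call of Tap1 was lost without any 1 of the 4 libraries and that of Psmb8 in 3 of the 4 such fits, which called 1 to 4 members. The heavy chain H2-K1 was not called, with 2588 and 2712 CPM against 2631 and 2683 CPM. Interferon-stimulated genes gave 1 higher and 1 lower call among 55 (median -0.04), 1.82% each against 4.71% and 2.09% of all genes tested. Igtp, an interferon-induced GTPase, had 93.7 and 94.6 CPM against 141 and 146 CPM (log2 fold change 0.65 ± 0.15, edgeR adjusted p = 0.00436), and Irf2, a repressor of interferon responses, had 148 and 140.2 CPM against 108 and 107 CPM (log2 fold change -0.38 ± 0.08, edgeR adjusted p = 0.00164). Both calls were lost without any 1 library. Isg15, with 10.9 and 11.4 CPM against 10.8 and 9.42 CPM, was not called.

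Transcription factors of stem cells were lower or not called. Of 26 tested regulators none was higher, 3 were lower (11.5% against 2.09% of all genes) and 23 were not called, with 25 below 0 and a median log2 fold change of -0.34. Nkx2-3, a homeobox factor, had 134 and 145 CPM at 10 weeks and 67.2 and 65.4 CPM at 20 months (log2 fold change -1.03 ± 0.11, edgeR adjusted p = 8.35e-06). Mllt3, which sustains stem cell self-renewal, had 121 and 117 CPM at 10 weeks and 64.4 and 61.9 CPM at 20 months (log2 fold change -0.88 ± 0.10, edgeR adjusted p = 6.85e-06). Lmo2, a bridging protein of the haematopoietic transcription complex, had 1206 and 1218 CPM at 10 weeks and 934 and 924 CPM at 20 months (log2 fold change -0.34 ± 0.06, edgeR adjusted p = 3.41e-04). In these 3 genes the ages did not overlap, and each stayed called without any 1 library. Hlf, with 664 and 635 CPM against 454 and 450.4 CPM (log2 fold change -0.48 ± 0.16, edgeR adjusted p = 0.048), was not called. The same held for Mecom, with 158 and 142 CPM against 115 and 116 CPM (log2 fold change -0.34 ± 0.15, edgeR adjusted p = 0.159), and Hoxa9, with 79.5 and 79.5 CPM against 52.4 and 50.9 CPM (log2 fold change -0.58 ± 0.15, edgeR adjusted p = 0.0119). The fit on the 4 MPP1 libraries alone called 15 of the regulators lower and none higher.

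Surface and quiescence genes of stem cells gave 1 higher and 3 lower calls of 26. These were 3.85% and 11.5%, against 4.71% and 2.09% of all genes tested. Pdzk1ip1 fell from 114 and 116 CPM to 63.5 and 61.8 CPM (log2 fold change -0.84 ± 0.16, edgeR adjusted p = 9.86e-04), and so did Cdkn1a. Ly6e rose 1.43-fold. Procr (EPCR), with 88.9 and 86.04 CPM against 73.5 and 73.2 CPM, was not called. The study names 9 genes in aged MPPs, a choice made on these samples and so no independent evidence of direction. Aurka, Aurkb, Calr and Srsf2 were higher and Lmo2 and Runx2 lower, Runx2 with 84.1 and 84.4 CPM against 57.8 and 61.5 CPM (log2 fold change -0.46 ± 0.10, edgeR adjusted p = 0.00358). Idh2, with 367 and 358 CPM against 418 and 402 CPM, Irf5, with 48.8 and 44.5 CPM against 33.1 and 34.6 CPM, and Notch1, with 70.6 and 69.03 CPM against 49.1 and 49.98 CPM, were not called (edgeR adjusted p = 0.0894, 0.117 and 0.2). That held for the fit in which all groups share the spread. The fit on the 4 MPP1 libraries alone called all 9 genes, 5 higher and 4 lower. The calls of Pdzk1ip1 and Runx2 were lost without any 1 library, those of Cdkn1a and Aurka without at least 1, and 0 to 1 genes of the surface and quiescence list were then lower. A replicate block within the fraction also ended the call of Runx2.

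**Figure D4:**
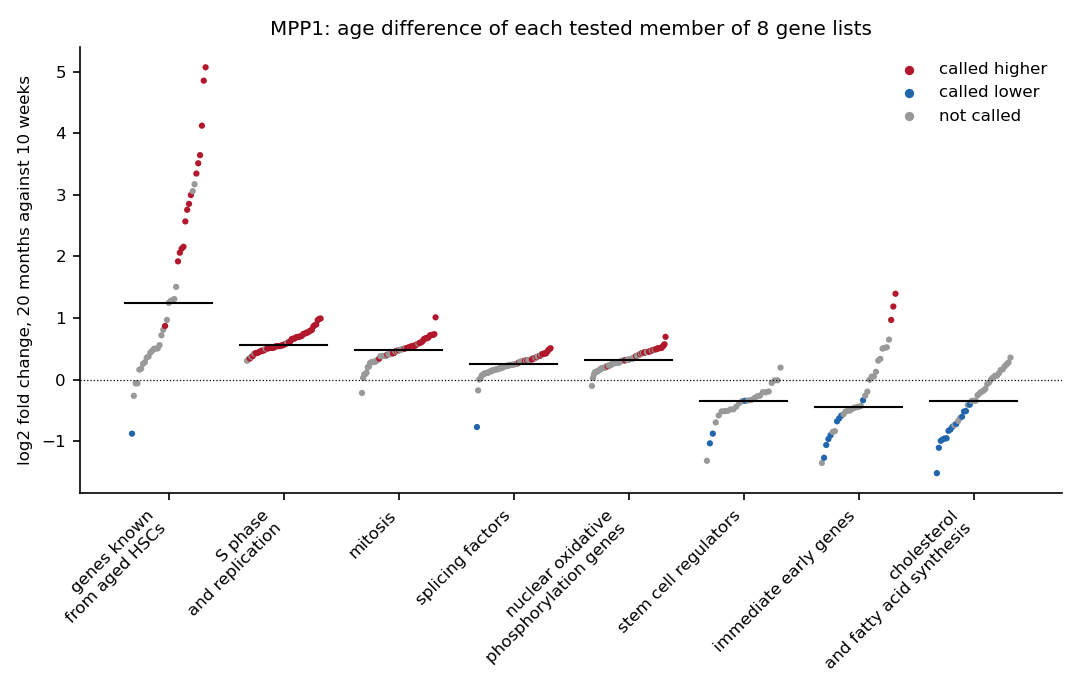
Log2 fold change of 20 months over 10 weeks for each tested member of 8 gene lists, ordered within a list, with red for called higher, blue for called lower, grey for not called and a bar at the list's median. The medians run from 1.25 for genes known from aged HSCs to -0.44 for immediate early genes, and the S phase list is the only one of the 8 with every member above 0.

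Immediate early genes, which respond within minutes to signals and also to tissue handling, moved in both directions. Of 35 members 8 were lower and 3 higher, 22.9% and 8.57% against 2.09% and 4.71% of all genes tested. Nr4a1, an orphan nuclear receptor, had 1562 and 1402 CPM at 10 weeks and 627 and 570.2 CPM at 20 months (log2 fold change -1.27 ± 0.18, edgeR adjusted p = 6.77e-05). The MAP kinase phosphatase Dusp2 had 518 and 519 CPM at 10 weeks and 239.6 and 244 CPM at 20 months (log2 fold change -1.06 ± 0.10, edgeR adjusted p = 3.23e-07), and Dusp5, 142 and 142 CPM against 72.2 and 69.4 CPM (log2 fold change -0.96 ± 0.13, edgeR adjusted p = 2.54e-05). Junb fell 1.54-fold and Ier2 1.497-fold. Klf2, a factor of quiescent lymphocytes and endothelium, rose from 281 and 294 CPM to 749.8 and 720.4 CPM (log2 fold change 1.39 ± 0.22, edgeR adjusted p = 2.19e-04), and Atf3 from 17.3 and 11.5 CPM to 36.2 and 27.5 CPM (log2 fold change 1.19 ± 0.27, edgeR adjusted p = 0.00584). Fos was not called, with 4296 and 4191 CPM at 10 weeks and 4576 and 4442 CPM at 20 months, and neither was Egr1, with 2561 and 2586 CPM at 10 weeks and 1785 and 1715 CPM at 20 months. Jund differed more between duplicates than between ages, with 99.2 and 878 CPM against 1123 and 58.6 CPM. The calls of Junb and Atf3 were lost without 1 of the libraries, which left 4 to 5 lower members and 1 higher.

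Hes1 and Smad7 fell. Hes1, a repressor induced by Notch, had 82.8 and 84.9 CPM at 10 weeks and 26.1 and 26.6 CPM at 20 months, a 3.09-fold fall and the smallest p among lower genes (log2 fold change -1.63 ± 0.12, edgeR adjusted p = 9.96e-08). Smad7, an inhibitor of TGF-beta signalling, had 134 and 125 CPM at 10 weeks and 47.3 and 41.4 CPM at 20 months (log2 fold change -1.51 ± 0.16, edgeR adjusted p = 2.24e-06). Both stayed called without any 1 library. The TGF-beta and BMP list held 1 higher (Bmpr1a) and 1 lower call (Smad7) of 38. That was 2.63% each, against 4.71% and 2.09% of all genes tested. Tgfb1 had 166 and 161 CPM against 178 and 180.3 CPM. Smad6, the inhibitor of BMP signalling, had 19.03 and 21.2 CPM against 11.2 and 9.97 CPM (log2 fold change -0.89 ± 0.33, edgeR adjusted p = 0.0826). In adhesion and homing 8 of 49 genes were lower and 2, Selp and Neo1, higher. That was 16.3% and 4.08%, against 2.09% and 4.71% of all genes tested. Itgb5, integrin beta 5, had 19.9 and 15.2 CPM at 10 weeks and 3.39 and 2.82 CPM at 20 months (log2 fold change -2.46 ± 0.20, edgeR adjusted p = 2.93e-07). S1pr1, the sphingosine-1-phosphate receptor that guides exit into blood, had 126 and 119.8 CPM against 71.7 and 64.1 CPM (log2 fold change -0.81 ± 0.12, edgeR adjusted p = 6.52e-05), and Cd47, the signal that restrains phagocytosis, 630.2 and 618 CPM against 460.0 and 474 CPM (log2 fold change -0.38 ± 0.05, edgeR adjusted p = 5.58e-05). Cd82, Cd44, Jam3, Itga9 and Vcam1 were the other lower members. Cxcr4, the homing receptor for CXCL12, was not called, with 8.35 and 8.73 CPM against 10.2 and 9.83 CPM. The calls of Cd44, Jam3, Itga9 and Neo1 were lost with a library left out, leaving 5 to 6 lower members and 1 higher.

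Genes of cholesterol synthesis were called as lower alone. When cells lack sterol, SREBP2 switches on the enzymes of synthesis, and sterol switches them off again. Of 39 tested genes 14 were lower (35.9% against 2.09% of all genes tested) and none higher (median log2 fold change -0.34). Sqle, squalene epoxidase, had 124 and 125 CPM at 10 weeks and 62.1 and 63.1 CPM at 20 months (log2 fold change -0.95 ± 0.10, edgeR adjusted p = 3.25e-06). Msmo1, a methylsterol oxidase, had 61.8 and 73.2 CPM at 10 weeks and 30.9 and 30.1 CPM at 20 months (log2 fold change -1.11 ± 0.15, edgeR adjusted p = 3.29e-05). In both genes the aged libraries lay below the young ones, and each stayed called without any 1 library.

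The regulators Insig1, with 107 and 111 CPM against 54.2 and 52.3 CPM (log2 fold change -0.99 ± 0.13, edgeR adjusted p = 2.66e-05), and Srebf2, the gene of SREBP2 itself, with 454 and 446 CPM against 294 and 283 CPM (log2 fold change -0.60 ± 0.10, edgeR adjusted p = 4.05e-04), fell as well. Further lower members were Idi1, Hmgcs1, Mvd, Fdps, Fdft1, Lss, Cyp51 and Hsd17b7 on the way from acetyl units to sterol, and Scd2, a desaturase. On the fatty acid side Fasn, with 344 and 313 CPM against 326 and 315 CPM, Acaca, with 48.1 and 47.2 CPM against 49.8 and 54.2 CPM, and Srebf1, with 156 and 167 CPM against 162 and 166 CPM, were not called. Without any 1 library 7 to 9 members were called lower, and the calls of Hmgcs1, Mvd, Fdft1, Lss and Hsd17b7 were lost in every such fit, those of Fdps and Srebf2 in at least 1.

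The sterol element (TCACNCCAC, either strand), searched for after the values of these genes were known, lay in 4.07% of promoters of genes called lower, 1.13% of those called higher and 1.15% of all, and in 2 of 38 promoters of the list. Hmgcs1, the synthase at the entry to the pathway, was the called list member that held it, beginning 137 bases before the start (chr13:119690101-119690400, + strand). It measured 59.8 and 58.4 CPM at 10 weeks and 33.7 and 33.9 CPM at 20 months (log2 fold change -0.76 ± 0.14, edgeR adjusted p = 0.00106).
Hmgcs1: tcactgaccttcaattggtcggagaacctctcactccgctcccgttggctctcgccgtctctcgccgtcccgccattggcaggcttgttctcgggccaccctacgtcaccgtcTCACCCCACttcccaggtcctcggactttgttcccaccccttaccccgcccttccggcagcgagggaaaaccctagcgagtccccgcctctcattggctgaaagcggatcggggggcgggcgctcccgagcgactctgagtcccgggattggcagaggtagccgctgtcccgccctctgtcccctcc

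Lineage genes were called in both directions. Of 45 myeloid genes 3 were higher and 4 lower, 6.67% and 8.89% against 4.71% and 2.09% of all genes tested. Prtn3, proteinase 3 of neutrophil granules, had 126 and 142 CPM against 210.4 and 221 CPM (log2 fold change 0.72 ± 0.16, edgeR adjusted p = 0.00385). Lyz2, lysozyme, had 386 and 419 CPM against 291 and 287 CPM (log2 fold change -0.44 ± 0.10, edgeR adjusted p = 0.00558). Ncf1, a subunit of the phagocyte oxidase, had 17.9 and 17.9 CPM against 8.47 and 9.08 CPM (log2 fold change -0.99 ± 0.17, edgeR adjusted p = 3.44e-04). Mpo and Elane differed between the aged duplicates, with 95.8 and 88.6 CPM against 137 and 328 CPM and 19.03 and 18.3 CPM against 27.6 and 69.6 CPM, and were not called. In the lymphoid list 4 genes were lower and 2 higher of 41, 9.76% and 4.88% against the same 2.09% and 4.71% (median log2 fold change -0.30). Ltb, lymphotoxin beta, had 185 and 207 CPM at 10 weeks and 99.6 and 99.4 CPM at 20 months (log2 fold change -0.94 ± 0.12, edgeR adjusted p = 1.67e-05). Satb1, a chromatin organiser of early lymphoid cells, had 21.7 and 17.2 CPM at 10 weeks and 9.39 and 10.8 CPM at 20 months (log2 fold change -0.90 ± 0.16, edgeR adjusted p = 5.89e-04). Cd53, a tetraspanin, rose 1.903-fold. Dntt, terminal transferase, was called higher at 0.15 and 0.296 CPM against 0.847 and 1.31 CPM, which is 2 to 19 reads per library. Without 1 library the myeloid list had 0 to 3 higher and 1 to 3 lower calls and the lymphoid list 1 to 2 and 1 to 2.

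Platelet and megakaryocyte genes had 2 higher and 1 lower calls of 35, 5.71% and 2.86% against 4.71% and 2.09% of all genes tested. The higher ones were Selp and Plek, pleckstrin, with 45.6 and 48.2 CPM at 10 weeks and 138 and 144 CPM at 20 months (log2 fold change 1.63 ± 0.19, edgeR adjusted p = 6.57e-06). Thbs1, thrombospondin 1, fell from 43.9 and 46.4 CPM to 13.3 and 14.2 CPM (log2 fold change -1.67 ± 0.29, edgeR adjusted p = 5.07e-04). Pf4, platelet factor 4, with 15.1 and 19.1 CPM against 9.32 and 9.14 CPM, and Itga2b (CD41), with 118 and 114 CPM against 162 and 168 CPM, were not called. Erythroid genes gave 1 call in each direction among 34 (2.94% each) and a median log2 fold change of -0.72. That median was -0.62 to -0.31 with 1 library left out and -0.43 in the fit on the 4 MPP1 libraries, which called 9 members lower. Rhag, of the Rhesus complex, had 5.49 and 4.59 CPM at 10 weeks and 0.616 and 1.58 CPM at 20 months (log2 fold change -2.12 ± 0.36, edgeR adjusted p = 4.70e-04). Hbb-b1, beta globin, had 244 and 239 CPM against 123 and 117 CPM and was not called, and Hba-a1 and Hba-a2 exchanged reads between duplicates, so neither can be read alone.

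Of 44 cytokine receptors 2 were higher and 2 lower (4.55% each against 4.71% and 2.09% of all genes tested), and each fit without a library called 1 higher and 0 lower. Il1r1, the interleukin-1 receptor, had 19.6 and 18.9 CPM at 10 weeks and 47.1 and 43.04 CPM at 20 months (log2 fold change 1.27 ± 0.19, edgeR adjusted p = 8.03e-05), and Csf3r, the receptor of G-CSF, 130.2 and 138 CPM against 172 and 174 CPM (log2 fold change 0.41 ± 0.10, edgeR adjusted p = 0.00817). Il21r fell 1.47-fold. In the complement list C4b, a component of the classical pathway, had 1.66 and 2.44 CPM at 10 weeks and 28.7 and 28.1 CPM at 20 months, a 14.2-fold rise (log2 fold change 3.83 ± 0.35, edgeR adjusted p = 2.23e-06). Serping1, the C1 inhibitor, had 0.376 and 0.814 CPM at 10 weeks and 4.39 and 4.19 CPM at 20 months (log2 fold change 2.87 ± 0.60, edgeR adjusted p = 0.0036). Calls lost with a left-out library were those of Prtn3, Lyz2, Satb1, Dntt, Thbs1, Rhag, Csf3r, Il21r and Serping1. That of Csf3r was also lost with no filter on low counts and with a replicate block within each fraction. That of Dntt was also lost in the fits on the 4 MPP1 libraries.

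Chromatin regulators were called in both directions, 3.57% of 56 higher and 8.93% lower against 4.71% and 2.09% of all genes tested. Dnmt1, the maintenance DNA methyltransferase, had 431 and 437 CPM at 10 weeks and 639 and 662 CPM at 20 months (log2 fold change 0.63 ± 0.08, edgeR adjusted p = 4.07e-05), and Ezh2, the methyltransferase of Polycomb, 64.02 and 64.7 CPM against 84.4 and 82.1 CPM (log2 fold change 0.41 ± 0.09, edgeR adjusted p = 0.00236). Dnmt3a, a de novo methyltransferase often mutated in clonal haematopoiesis, had 124 and 112 CPM against 82.1 and 89.5 CPM (log2 fold change -0.42 ± 0.09, edgeR adjusted p = 0.00474). The demethylase gene Kdm5b had 144 and 142 CPM against 93.03 and 101 CPM (log2 fold change -0.52 ± 0.08, edgeR adjusted p = 1.55e-04). Idh1 had 48.7 and 48.5 CPM against 29.96 and 34.4 CPM (log2 fold change -0.55 ± 0.11, edgeR adjusted p = 0.00226), and Tet1 fell 1.47-fold. Of 56 such genes 2 were higher and 5 lower, or 1 and 0 to 2 with 1 library left out. In DNA damage 9 of 51 were higher, all of them repair or checkpoint genes, and 4 to 5 without 1 library. The 9 were 17.6%, against 4.71% of all genes tested. Fancd2, of the Fanconi pathway, had 23.5 and 23.9 CPM against 39.5 and 44.5 CPM (log2 fold change 0.87 ± 0.13, edgeR adjusted p = 1.16e-04). The p53 targets Cdkn1a and Sesn1 were the 2 lower members (0 to 1 without 1 library), and Mdm2 was not called, with 81.8 and 81.1 CPM against 65.2 and 64.6 CPM.

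Among 54 antioxidant and detoxification genes 5 were higher and 3 lower, 9.26% and 5.56% against 4.71% and 2.09% of all genes tested. Gclm, of glutathione synthesis, had 176 and 158 CPM against 247 and 252 CPM (log2 fold change 0.62 ± 0.07, edgeR adjusted p = 3.74e-06), and Prdx1, a peroxiredoxin, 479 and 527 CPM against 695 and 685 CPM (log2 fold change 0.50 ± 0.07, edgeR adjusted p = 5.84e-05). Cat, catalase, fell from 249 and 254 CPM to 163 and 163 CPM (log2 fold change -0.58 ± 0.06, edgeR adjusted p = 3.10e-06). Autophagy and lysosome genes gave 2 lower calls of 47, 4.26% against 2.09% of all genes tested. Ctsf, cathepsin F, had 75.4 and 73.1 CPM against 35.9 and 37.95 CPM (log2 fold change -0.97 ± 0.13, edgeR adjusted p = 2.54e-05). The autophagy receptor Sqstm1 had 318 and 322 CPM against 232 and 241 CPM (log2 fold change -0.39 ± 0.09, edgeR adjusted p = 0.0036). The calls of Ezh2, Dnmt3a and Sqstm1 were lost without any 1 library, and those of Kdm5b, Idh1, Tet1 and Sesn1 in at least 1 such fit. A replicate block within each fraction also ended those of Dnmt3a and Idh1, and offsets for GC content and length that of Dnmt3a.

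The smallest p of all genes tested was that of Emilin2, an extracellular matrix glycoprotein, with 15.05 and 12.4 CPM at 10 weeks and 65.5 and 65.1 CPM at 20 months (log2 fold change 2.29 ± 0.12, edgeR adjusted p = 1.06e-10). Other higher genes with large changes were Rorb, a nuclear receptor, with 0.527 and 0 CPM against 8.01 and 7.22 CPM (log2 fold change 4.85 ± 0.68, edgeR adjusted p = 1.25e-04), and Tmem215, with 1.73 and 0.592 CPM against 17.3 and 20.01 CPM (log2 fold change 4.04 ± 0.41, edgeR adjusted p = 3.04e-06). Prom2 had 1.96 and 1.26 CPM against 15.02 and 11.3 CPM (log2 fold change 3.07 ± 0.49, edgeR adjusted p = 6.40e-04). The mucin gene Muc1 had 0.451 and 0.592 CPM against 5.62 and 4.88 CPM (log2 fold change 3.34 ± 0.65, edgeR adjusted p = 0.00179). Tm4sf1 rose 7.98-fold. H2-T3, which shares sequence with other class I genes, had 0.301 and 1.33 CPM against 8.78 and 8.04 CPM (log2 fold change 3.38 ± 0.68, edgeR adjusted p = 0.0036). D17H6S56E-5 had 1059 and 1085 CPM against 1679 and 1714 CPM (log2 fold change 0.70 ± 0.05, edgeR adjusted p = 1.10e-08). The organic anion transporter gene Slco3a1 rose 1.799-fold.

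Of the lower genes Ebi3, a subunit of interleukin-27 and interleukin-35, had 69.8 and 74.3 CPM at 10 weeks and 16.2 and 17.1 CPM at 20 months (log2 fold change -2.08 ± 0.22, edgeR adjusted p = 3.04e-06). Fscn1, the actin-bundling protein fascin, had 32.8 and 29.6 CPM at 10 weeks and 9.703 and 8.39 CPM at 20 months (log2 fold change -1.75 ± 0.31, edgeR adjusted p = 7.63e-04), and Nrk, a kinase, 19.7 and 18.8 CPM against 5.01 and 6.600 CPM (log2 fold change -1.69 ± 0.25, edgeR adjusted p = 3.11e-04). Igf2bp2, an RNA-binding protein, fell from 8.201 and 10.7 CPM to 2.31 and 2.48 CPM (log2 fold change -1.94 ± 0.38, edgeR adjusted p = 0.00143). Htra3, a protease, Rasl11b and Mtus1 fell 6.298-, 5.704- and 5.34-fold, and Tnfsfm13, a read-through of neighbouring TNF family genes that overlaps them, had 5.94 and 7.103 CPM against 0.154 and 0.344 CPM. Calls that did not hold without each library were those of Prom2, Muc1, Tm4sf1, H2-T3, Fscn1, Nrk, Igf2bp2, Htra3, Rasl11b, Mtus1 and Tnfsfm13. A replicate block within each fraction also ended those of Muc1, H2-T3 and Tnfsfm13.

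Some of the lower genes are known as markers of other blood cell types. Prg2, major basic protein of eosinophil granules, had 23.8 and 25.2 CPM at 10 weeks and 0 and 0.55 CPM at 20 months (log2 fold change -6.31 ± 0.66, edgeR adjusted p = 3.95e-06), and Epx, eosinophil peroxidase, had 5.19 and 6.88 CPM at 10 weeks and no read at 20 months, at least 27.6-fold lower against a floor of 3 counts per library. Prg3 also had reads at 10 weeks alone, with 1.28 and 1.78 CPM. The calls of Epx, Prg3 and Fcer1a were lost in at least 1 fit without a library, and that of Prg2 was not. Those of Prg3 and Fcer1a were also lost with a replicate block within each fraction. Of the 14 eosinophil, basophil and mast cell markers 3 were lower and 1 was higher. That was 21.4% and 7.14%, against 2.09% and 4.71% of all genes tested. The higher one was the IgE receptor gene Fcer1a, at 1.54 and 1.17 CPM from no read. The list summed to 488 and 477 CPM at 10 weeks and 352 and 343 CPM at 20 months, most of it Gata2, a gene of stem cells too, and 4 members were at 0 in all libraries.

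Macrophage and monocyte markers had 5 lower and 1 higher calls of 18 and a median log2 fold change of -0.997. The calls were 27.8% and 5.56%, against 2.09% and 4.71% of all genes tested. The sum of these markers went from 119 and 126 CPM to 61.3 and 67.5 CPM. Hmox1, haem oxygenase, had 20.4 and 24.3 CPM at 10 weeks and 4.77 and 4.95 CPM at 20 months (log2 fold change -2.16 ± 0.27, edgeR adjusted p = 2.54e-05). Slc40a1, the iron exporter ferroportin, had 18.3 and 18.6 CPM at 10 weeks and 6.24 and 4.400 CPM at 20 months (log2 fold change -1.76 ± 0.20, edgeR adjusted p = 5.40e-06). Vcam1 had 11.7 and 11.6 CPM against 3.47 and 4.06 CPM (log2 fold change -1.58 ± 0.24, edgeR adjusted p = 1.38e-04). These genes are known from the macrophages of erythroblastic islands, and Fcna and Siglec1, of the same cells, were lower too. Hmox1 and Slc40a1 also averaged 25.1 and 20.6 CPM in young HSC and 46.96 and 61.6 CPM in young MPP2. Their log2 fold changes were -1.55 and -1.71 in HSC and -2.39 and -2.19 in MPP2. The macrophage list held 4 lower calls in HSC and 7 in MPP2, and no higher call in either. Cx3cr1, a monocyte receptor, was higher in MPP1. The call of Siglec1 was lost without any 1 library and with a replicate block, and that of Cx3cr1 in 3 of the 4 fits without a library. Csf1r, the receptor that defines macrophages, was at 2.62 to 4.29 CPM in the 4 libraries and not called. Mature erythroid markers summed to 861 and 933 CPM at 10 weeks and 421 and 409 CPM at 20 months, with no call among 11. The part of such cells in the differences above was not tested.

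Neutrophil markers summed to 227 and 191 CPM at 10 weeks and 263 and 516 CPM at 20 months, and T and NK cell markers to 98.3 and 100.1 CPM and 105 and 111 CPM. The T and NK sum rose by less than its member Nkg7 did, and 4 of 15 tested members lay above 0. Megakaryocyte and platelet markers summed to 215 and 216 CPM and 246 and 257 CPM, most of it Itga2b, which rose. Of 9 tested members 3 lay above 0, with a median log2 fold change of -0.56. Endothelial markers summed to 300.5 and 304 CPM and 220.2 and 214 CPM, most of it Tie1, and stromal markers to 61.0 and 60.6 CPM and 69.1 and 67.1 CPM. The T cell receptor complex genes Cd3e, Cd3d and Cd3g had no read in any library. Of these 5 lists' members only Nkg7, which progenitors also express, was called, with 41.4 and 44.4 CPM against 62.2 and 67.4 CPM (log2 fold change 0.64 ± 0.12, edgeR adjusted p = 8.25e-04), and the call was lost in 1 of the 4 fits without a library.

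The age difference in MPP1 was set against that in HSC, which share the marrow pools by the sources but no library. Of the 666 genes with a symbol called higher in MPP1, 270 were also called higher in HSC, 40.5% of the MPP1 genes and 51.0% of the 529 HSC genes. Of the 296 lower genes 103 were also lower in HSC, 34.8% of them and 43.8% of the 235 HSC genes, and 3 were called in the opposite direction. Over all genes tested the HSC calls made up 3.74% higher and 1.66% lower. MPP2 shared 412 of the higher genes, 61.9% of those of MPP1 and 64.8% of its own 636, and 204 of the lower ones, 68.9% and 43.5% of its own 469, against 4.49% and 3.31% of all genes tested. Tested directly, the age difference differed between MPP1 and HSC in 17 genes (0.12% of genes tested), 2 with a greater and 15 with a smaller value in MPP1, and 1358 genes had an unadjusted p under 0.05. Across other settings this count ran from 3 to 146. Without aged HSC replicate 1 this count was larger, with most of its genes greater in MPP1, while none of the 17 changed sign. It was 4 without young MPP1 replicate 1 and 5 without either aged MPP1 library or young HSC replicate 2.

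Selp rose in both fractions but less in MPP1: in HSC it had 42.7 and 36.4 CPM at 10 weeks and 464 and 454 CPM at 20 months, and the log2 age difference in MPP1 minus that in HSC was -1.43 ± 0.20, edgeR adjusted p = 0.00147. Cdkn2c and Mt1 had the same pattern, with HSC values of 8.89 and 6.96 CPM at 10 weeks and 29.1 and 28.8 CPM at 20 months and 6.84 and 5.91 CPM at 10 weeks and 56.3 and 62.9 CPM at 20 months. Hes1 fell in both and more in MPP1, having in HSC 127 and 133 CPM at 10 weeks and 82.95 and 81.4 CPM at 20 months (-1.02 ± 0.16, edgeR adjusted p = 0.00529). Gem, a small GTPase, fell in MPP1 with 88.6 and 88.3 CPM at 10 weeks and 48.9 and 44.2 CPM at 20 months and had in HSC 89.5 and 92.8 CPM at 10 weeks and 124 and 104 CPM at 20 months (-1.25 ± 0.16, edgeR adjusted p = 5.53e-04). Cdkn1a fell in MPP1 and had in HSC 36.97 and 37.1 CPM at 10 weeks and 48.9 and 55.8 CPM at 20 months (-1.18 ± 0.18, edgeR adjusted p = 0.00257). Malat1, a nuclear long noncoding RNA, fell in MPP1 with 361 and 337 CPM at 10 weeks and 225 and 225 CPM at 20 months and had in HSC 392 and 378 CPM at 10 weeks and 1445 and 1071 CPM at 20 months (-2.34 ± 0.18, edgeR adjusted p = 1.86e-07). The fall of Malat1 within MPP1 was not called without any 1 MPP1 library, and that of Gem was called without each.

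Chil3 and Ngp, proteins of neutrophil granules, were not called in MPP1, with 12.04 and 9.62 CPM against 6.31 and 7.91 CPM and 43.6 and 29.002 CPM against 25.95 and 36.03 CPM, and had in HSC 2.84 and 1.69 CPM at 10 weeks and 22.7 and 21.3 CPM at 20 months and 18.3 and 19.7 CPM at 10 weeks and 94.9 and 96.5 CPM at 20 months. Rhag had in HSC 6.49 and 2.88 CPM at 10 weeks and 8.64 and 8.74 CPM at 20 months (-3.10 ± 0.44, edgeR adjusted p = 0.00192). Endod1 and Siglecg were the 2 genes with a greater value in MPP1. Endod1 had 21.5 and 21.1 CPM at 10 weeks and 23.3 and 28.8 CPM at 20 months in MPP1 and 13.8 and 14.98 CPM at 10 weeks and 7.54 and 8.53 CPM at 20 months in HSC. Siglecg, with 4.21 and 4.37 CPM against 2.46 and 3.03 CPM in MPP1, had in HSC 1.16 and 1.13 CPM at 10 weeks and 0 and 0 CPM at 20 months. Rrbp1, Zc3h12a, Bhlhe40 and Mki67 were also among the 17. Malat1 and Chil3 were called without any 1 of the 8 libraries, and the other 15 lost the call in at least 1 such fit.

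**Figure D5:**
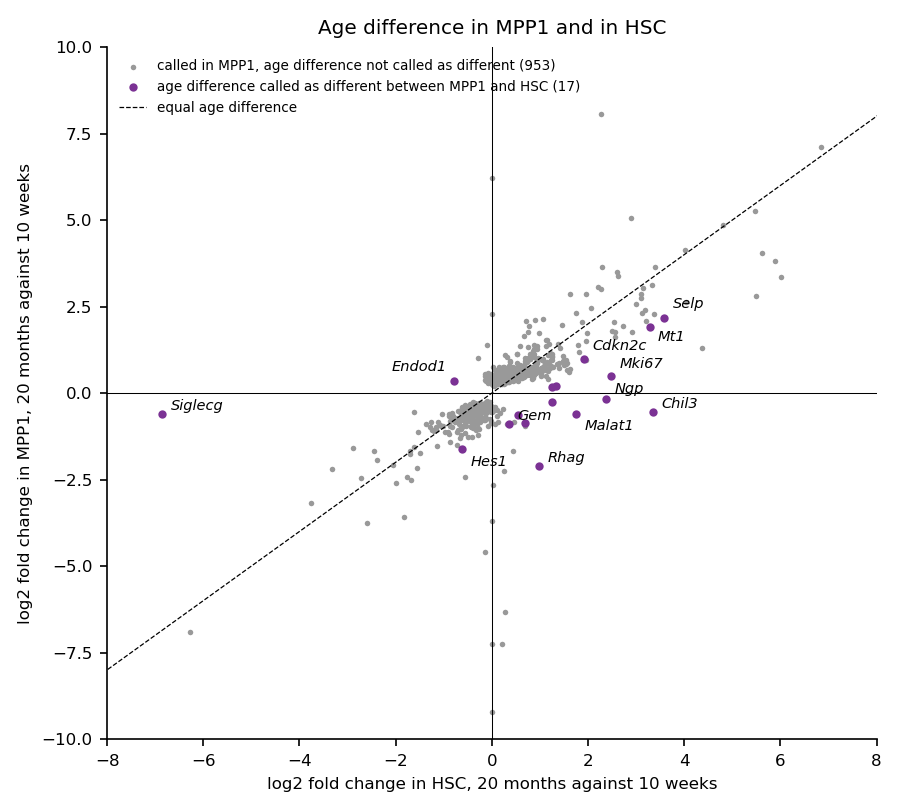
Log2 fold change of 20 months over 10 weeks in HSC (x axis) and in MPP1 (y axis) for genes called in MPP1, in grey, and for the 17 genes whose age difference was called as different between the fractions, in purple, most of them labelled. Of those 17 genes 15 lie below the dashed line of equal age difference.

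Against MPP2 the age difference differed in 5 genes (0.0353% of genes tested), 4 greater and 1 smaller in MPP1, with 473 at an unadjusted p under 0.05 and DESeq2 on all libraries calling 44. Clu rose in MPP1 and had in MPP2 5.94 and 4.54 CPM at 10 weeks and 4.65 and 4.06 CPM at 20 months (3.06 ± 0.40, edgeR adjusted p = 0.00246). Emilin2 rose in both, with 55.1 and 55.6 CPM at 10 weeks and 118 and 124 CPM at 20 months in MPP2 (1.11 ± 0.16, edgeR adjusted p = 0.00285). Prg2 had in MPP2 60.99 and 65.4 CPM at 10 weeks and 45.3 and 46.5 CPM at 20 months (-5.91 ± 0.79, edgeR adjusted p = 0.00285). Cpa3, carboxypeptidase A3 of mast cells, was not called in MPP1, with 4.14 and 3.995 CPM against 5.85 and 5.43 CPM, and had in MPP2 46.1 and 48.6 CPM at 10 weeks and 25.8 and 26.5 CPM at 20 months (1.31 ± 0.19, edgeR adjusted p = 0.00406). Gpx3 had in MPP1 1.05 and 1.41 CPM against 1.69 and 2.13 CPM and in MPP2 12.5 and 11.9 CPM at 10 weeks and 3.31 and 2.78 CPM at 20 months (2.63 ± 0.40, edgeR adjusted p = 0.00617). None of the 5 stayed called without each single library, and 4 of the 8 such fits called no gene.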

How the data were processed

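RNA of the sorted cells was amplified with the SMARTer Ultra Low Input kit. Per the labels and methods, the authors aligned the reads to mm10 with TopHat2 2.0.13 and Bowtie2 2.1.0 and deposited whole read counts per gene, not normalized. The methods give StringTie as the source of the counts and DESeq2 as the tool the authors used to scale them, take out batch effects and test them, steps the deposited counts do not show. Strand use was not given in the sources used here, and no batch is labelled. The table held 24421 genes and 32 libraries of 11237384 to 17723245 counts. A further 27 symbols turned into dates (0.188% of counts) were not named.

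Counts were tested with edgeR 4.0.16 (R 4.3.3): TMM scaling, filterByExpr, 16 group means over all 32 libraries and a quasi-likelihood test, called at an adjusted p under 0.01. Contrasts were the age difference in MPP1 and that difference minus the one in HSC or MPP2. The script was tested on simulated data. CPM are counts over library totals. Genes with few reads have the larger errors. Gene lists and members were chosen with earlier results of these data known. Named were the 15 higher and 15 lower genes of at least 5 CPM with the largest change, the 10 of each with the smallest p, the sort antigens, the genes the study names, up to 6 called members of each list with others where a defining member was not called, and up to 6 genes each way per interaction. Neo1, Ccne1, Aldoc, Junb, Atf3, Srebf2, Hmgcs1 and Tet1 were added after their values were seen. Alternatives were DESeq2 1.42.0, its size factors, no filter, fewer libraries, replicate blocks, offsets for GC content and length, other thresholds and each library left out. Some genes are not reported here.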

Additional observations from a re-analysis of the deposited data

Results flagged for a closer look

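The genes below were among those whose age difference in MPP1 differed from the one in a neighbouring fraction by the test of the difference itself (edgeR, adjusted over all genes tested). They are given as log2 age difference in MPP1 minus that in the other fraction.

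Against HSC the value was lower in MPP1 for Malat1 (-2.34 ± 0.18, edgeR adjusted p = 1.86e-07), Chil3 (-3.91 ± 0.36, edgeR adjusted p = 3.77e-06) and Gem (-1.25 ± 0.16, edgeR adjusted p = 5.53e-04). It was also lower for Selp (-1.43 ± 0.20, edgeR adjusted p = 0.00147) and Ngp (-2.56 ± 0.37, edgeR adjusted p = 0.0019). Rhag (-3.10 ± 0.44, edgeR adjusted p = 0.00192), Cdkn1a (-1.18 ± 0.18, edgeR adjusted p = 0.00257) and Cdkn2c (-0.93 ± 0.15, edgeR adjusted p = 0.00506) followed, with Mt1 (-1.36 ± 0.23, edgeR adjusted p = 0.00526) and Hes1 (-1.02 ± 0.16, edgeR adjusted p = 0.00529). It was higher for Endod1 (1.12 ± 0.16, edgeR adjusted p = 0.0019) and for Siglecg (6.26 ± 0.95, edgeR adjusted p = 0.00267), whose fitted value is no bound, since aged HSC libraries had no read of it.

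Against MPP2 the value was higher in MPP1 for Clu (3.06 ± 0.40, edgeR adjusted p = 0.00246), Emilin2 (1.11 ± 0.16, edgeR adjusted p = 0.00285), Cpa3 (1.31 ± 0.19, edgeR adjusted p = 0.00406) and Gpx3 (2.63 ± 0.40, edgeR adjusted p = 0.00617), and lower for Prg2 (-5.91 ± 0.79, edgeR adjusted p = 0.00285).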

How the results depend on the processing

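The age difference in MPP1 was called in 963 genes. DESeq2's size factors gave 982, no filter 865, and offsets for GC content and length 1228. The count was 2421 with the 4 libraries alone (DESeq2 2586), 1457 with the 20 libraries of HSC and MPP1 to MPP4, 1671 with DESeq2 on all libraries, 1846 at an adjusted p under 0.05 and 150 if a 2-fold change or more was also asked for. Higher genes made up 69.3% of calls, 56.9% with the 4 libraries alone (57.1% by DESeq2), 54.1% with 20 libraries, and 81.1% and 81.2% without aged replicate 1 or 2. Leaving out 1 library gave 343 to 490. The cause of these shifts was not tested.

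The 17 genes that differed from HSC became 91 (DESeq2, libraries of the contrast), 65 (20 libraries), 146 (DESeq2, all libraries), 40 (offsets) and 66 (adjusted p under 0.05). Leaving out 1 library gave 4 to 76: 4 without young MPP1 replicate 1, 5 without aged MPP1 replicate 1 or 2 or young HSC replicate 2, and 76 (54 of them greater in MPP1, against 2 of the 17) without aged HSC replicate 1. The 5 that differed from MPP2 became 60 (contrast libraries), 134 (DESeq2, contrast libraries), 18 (20 libraries), 44 (DESeq2, all libraries) and 16 (adjusted p under 0.05), and 0 to 3 without any 1 of the 8 libraries of that contrast.

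Same-numbered libraries did not deviate together (correlation of deviations -0.056, or -0.326 over genes of at least 10 CPM, the lowest of the 8 fractions, which reached 0.228), so the numbers were not taken as pairs. With a replicate block within each fraction, 923 genes were called in MPP1, 3 against HSC (8 with offsets added) and 4 against MPP2. A crossed replicate block, chosen after seeing the data because the value was below 0, called 937. No called gene named in the text changed direction, but some that were not called, such as Ngp and Slamf1, lay on either side of 0.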
